A study of Homo sapiens with 4 samples.

Results

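The comparison is between the 2 control libraries of an RNA sequencing study of human prostate cancer cell lines, 1 from DU145 and 1 from PC-3, out of 4 libraries in all. Both control cultures received DMSO, the solvent of the study compound, and no inhibitor. The other 2 libraries came from the same lines after 48 h with OICR-9429, a small molecule that blocks the binding of the adaptor protein WDR5 to MLL. The dose was 120 µM for DU145 but 150 µM for PC-3. These libraries share no library with the control pair and serve here as a second pair of values for the line difference. DU145 was grown in DMEM and PC-3 in RPMI1640, so the line and its medium cannot be told apart. Each line had 1 control library, so the difference between the control libraries has no test, and intervals cover counting error alone. The control libraries held 27591000 fragments (DU145) and 29312000 (PC-3), and mitochondrially encoded genes took 5.63% and 6.38% of the reads.

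DU145 was established from a brain metastasis and PC-3 from a bone metastasis of prostate cancer, and both grow without androgen. The lines are known to carry different lesions. PC-3 has lost alpha-catenin (CTNNA1), the link between cadherins and actin, and is known to lack STAT3. DU145 carries mutations in RB1, STK11 and CDKN2A, among others. Values below are CPM, read counts scaled to a common library total. CPM is not scaled to gene length, so it compares lines within a gene and not 1 gene with another. Where a pair of CPM values is given without naming the libraries, the DU145 control comes first and the PC-3 control after it. The difference between lines is that of log2(CPM + 1), DU145 minus PC-3, which understates the difference of genes at low CPM.

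Of 20988 genes listed for both lines, 15875 reached 1 CPM in the higher library and were compared. At 2-fold or more, 3947 of them were higher in DU145 (24.9%) and 1750 higher in PC-3 (11.0%), 35.9% in all. At 8-fold or more, 378 were higher in DU145 (2.38%) and 226 higher in PC-3 (1.42%), 3.8% in all. The median difference over all compared genes was 0.33, with quartiles of -0.40 and 1.00, so the list medians below are read against 0.33 and not against 0. This tilt was larger in genes of low level. Among 4673 genes with a mean of 1 to 10 CPM, 36.6% were higher in DU145 and 9.39% higher in PC-3 at 2-fold, with a median of 0.64. Among 2458 genes with a mean over 100 CPM, 387 and 388 genes were higher in either line, with a median of -0.06. Median-of-ratios scaling shifts the log2 ratio of CPM by -0.41 and TMM scaling by -0.37. With 1 CPM added, the differences of genes at low CPM shift by less. With these scalings, the share of 2-fold genes that were higher in DU145 went from 69.3% to 47.1% and 49.2%. Which line has more high genes thus rests on the scaling.

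**Figure D1:**
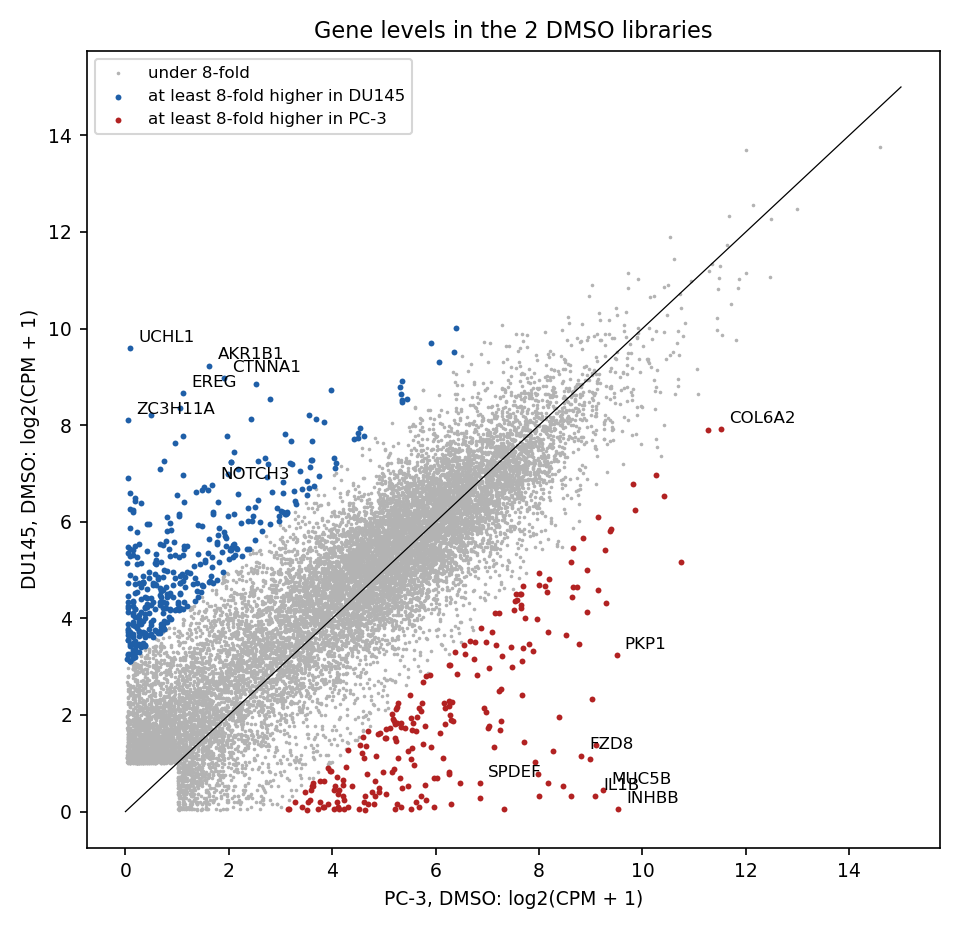
Level of each compared gene in the PC-3 control library (horizontal axis) and the DU145 control library (vertical axis), both as log2(CPM + 1), with 1 point a gene and the diagonal marking equal levels. The 378 blue and 226 red genes are at least 8-fold apart, from UCHL1 at the left edge to INHBB at the lower edge.

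Genes of the known genotypes were read first, since they check the labels of the libraries. CTNNA1 (ENSG00000044115) was at 499 CPM in DU145 and 2.73 CPM in PC-3, and at 656 and 3.45 CPM in the OICR-9429 pair. The ratio of the control libraries was 183 (exact 95% counting interval 147 to 231). CTNNA1 was thus high in DU145 and low in PC-3 in both pairs of libraries, with no overlap.

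RB1, STK11 and CDKN2A, which are mutated in DU145, were not low there. RB1, the pocket protein that holds E2F in check, was at 64.3 CPM in DU145 and 57.0 CPM in PC-3. STK11, the kinase upstream of AMPK, was at 96.4 and 67.7 CPM. CDKN2A, which encodes the p16 and ARF inhibitors, was at 384 CPM in DU145 and 111 CPM in PC-3, a ratio of 3.46 (3.33 to 3.60). In the OICR-9429 pair CDKN2A was at 274 and 240 CPM, so the gap was not repeated there. BRCA2 and KDM6A, a repair and a histone demethylase gene, differed by less than 2-fold, at 0.74 and -0.96. CDH1, which encodes E-cadherin, was at 58.4 and 9.38 CPM.

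**Figure D2:**
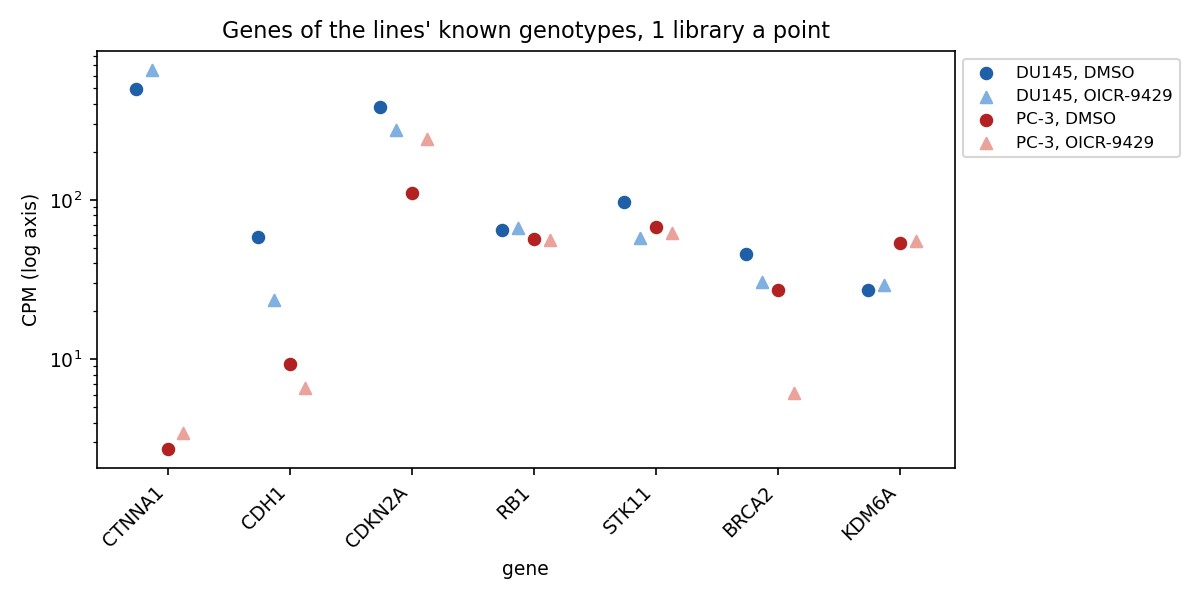
CPM on a log axis of 7 genes of the known genotypes, with 1 point for each of the 4 libraries (circles for DMSO, triangles for OICR-9429). CTNNA1 and CDH1 are separated by line in both pairs, while RB1 and STK11 lie together.

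STAT3 (ENSG00000168610), the transcription factor downstream of interleukin 6 receptors, was at 380 CPM in the DU145 control and 352 CPM with OICR-9429, and was not listed in either PC-3 library. A gene was listed for a line when both of its libraries held reads, or when 1 held at least 5 fragments, so an unlisted gene has no value and no fold is given. STAT3 stands in a run of 10 neighbouring protein-coding genes on chromosome 17 that were all high in DU145 and unlisted or near 0 in PC-3. In gene order they were DHX58, KAT2A, HSPB9, RAB5C, GHDC, STAT5B, STAT5A, STAT3, CAVIN1 and ATP6V0A1. In DU145 they ranged from 1.01 CPM for HSPB9 to 703 CPM for CAVIN1, the caveola coat protein. KAT2A, a histone acetyltransferase, was at 95.6 CPM, STAT5B at 88.4 CPM and STAT5A at 22.1 CPM. For PC-3, ATP6V0A1 was the single member listed, at 0.239 CPM against 82.9 CPM in DU145. On 1 side, NAGLU was at 46.9 CPM in DU145 and 5.90 CPM in PC-3, HSD17B1 at 9.97 and 1.81 CPM, and COASY at 142 and 110 CPM. On the other, C17orf113 was at 7.14 and 0.989 CPM, ZNF385C at 9.17 and 0.375 CPM, and NKIRAS2 at 60.8 and 38.1 CPM. The nearest neighbours were thus listed in both lines but still much lower in PC-3, and genes within 2-fold began further out, with COASY and NKIRAS2. Whether the DNA of this stretch is present in PC-3 was not measured. WDR5, the target of the study compound, and CD274, which encodes PD-L1, differed by less than 2-fold (88.8 and 62.2 CPM, and 27.4 and 18.5 CPM). In the OICR-9429 pair both were past 2-fold toward DU145, with WDR5 at 83.5 and 37.6 CPM and CD274 at 29.2 and 9.50 CPM.

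**Figure D3:**
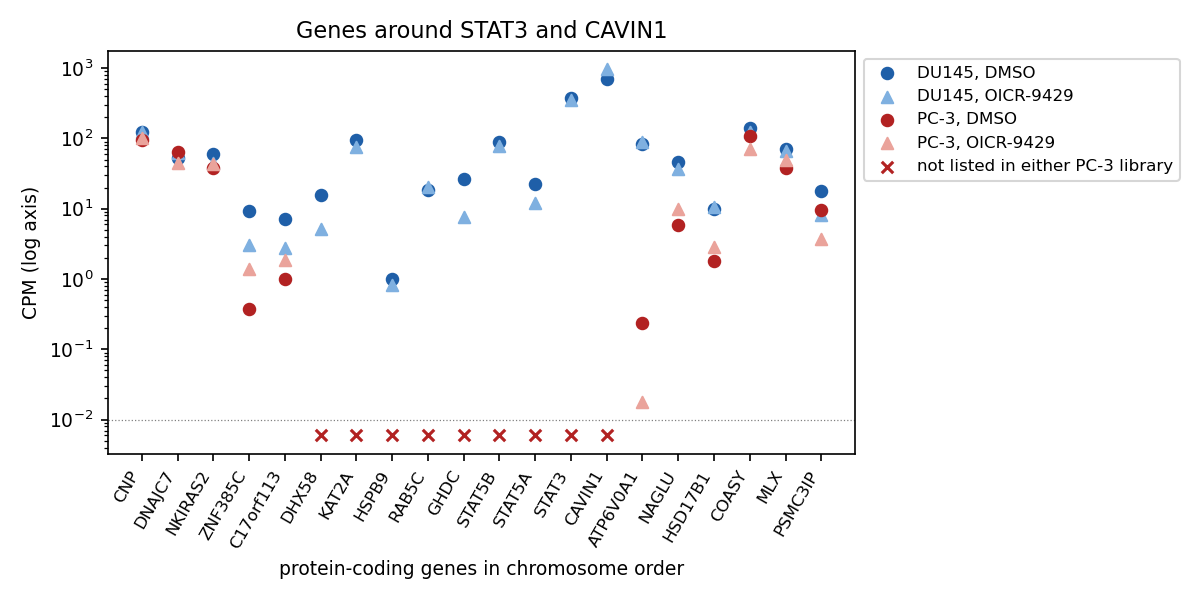
CPM on a log axis of 20 protein-coding genes in chromosome order, from CNP to PSMC3IP, in the 4 libraries. Crosses under the dotted line mark the 9 genes that were not listed in either PC-3 library, while the genes at both ends have values in both lines.

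The run came from a scan of 13634 protein-coding genes at 1 CPM or more in either line, chosen after the data were seen, in which unlisted genes counted as low and 8-fold ratios used a floor of 0.1 CPM. Of these genes, 1206 met the rule for DU145 and 527 that for PC-3, so runs in DU145 had more genes to form from. The scan found 29 runs of 3 or more genes high in DU145 and 11 high in PC-3, of which 8 had 4 genes or more. Under the stricter planned rule, compared genes alone and at least 4 in a row, the count was 0. In PC-3, the secreted mucin genes MUC6, MUC2, MUC5AC and MUC5B formed a run. MUC5B was at 603 CPM in PC-3 and 0.362 CPM in DU145, MUC5AC at 134 CPM and MUC2 at 31.3 CPM with no listing in DU145, and MUC6 at 3.89 and 0.326 CPM. The trefoil factor genes TFF3, TFF2 and TFF1, whose products are secreted with mucins, were another run, at 1.30, 27.3 and 23.7 CPM in PC-3 and unlisted in DU145. Another run held IL1A, IL1B and IL37, at 2.05, 541 and 10.3 CPM in PC-3 and 0.254, 0.254 and 0.0181 CPM in DU145. The last of these values is the smallest that the file writes and stands for 0 fragments. In DU145, the lung and thyroid factor NKX2-1 was at 92.1 CPM, with SFTA3 at 11.0 CPM and NKX2-8 at 17.8 CPM on either side. In PC-3 NKX2-8 was at 0.307 CPM and the other two were unlisted.

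Other gaps of the same kind in PC-3 stood beside genes expressed in both lines. The order is that of protein-coding genes at 1 CPM or more in either line, so other genes can lie between those named. PRXL2A and TSPAN14, adjacent in that order, were at 89.5 and 69.4 CPM in DU145 and unlisted in PC-3. On either side, ANXA11 and GHITM were at 638 and 112 CPM in PC-3. CDHR1, the next after GHITM, was at 12.7 CPM in DU145 and unlisted in PC-3. PARP6 and HEXA, the lysosomal hexosaminidase, were at 93.6 and 11.6 CPM in DU145 and unlisted in PC-3, beside PKM at 2835 CPM and ARIH1 at 60.6 CPM there. ZC3H11A, an RNA export factor, was at 273 CPM in DU145 and 0.0341 CPM, or 1 fragment, in PC-3. ZBED6, which lies within ZC3H11A, was at 27.1 and 0.546 CPM, and how reads shared by the pair were counted is not given. RAD50, a subunit of the MRE11 repair complex, was at 97.2 and 1.57 CPM, between IRF1 at 43.5 and 22.9 CPM and KIF3A at 41.6 and 22.5 CPM. A listing covers both libraries of a line, so the unlisted genes have no value in the PC-3 library with OICR-9429 either. ZC3H11A and RAD50 were again low there, at 0.144 and 0.684 CPM.

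The largest difference in favour of DU145 was UCHL1 (ENSG00000154277), a neuronal deubiquitinating enzyme also used as a neuroendocrine marker. It was at 768 CPM in DU145 and 0.0682 CPM, or 2 fragments, in PC-3, a difference of 9.49, and at 1040 and 0.108 CPM in the OICR-9429 pair. The other compared neuroendocrine genes did not follow it: SYP was at 1.41 and 0.921 CPM, ENO2 at 73.2 and 79.8 CPM, and PEG10 was higher in PC-3 at 89.3 and 391 CPM. Of the same list, 3 genes were listed for DU145 alone and 1 for PC-3 alone. The 15 largest included 4 genes of metabolic enzymes. AKR1B1, the aldose reductase, was at 600 and 2.08 CPM, a ratio of 288 (224 to 377). BCAT1, the cytosolic branched-chain aminotransferase, was at 296 and 0.409 CPM. ASNS, the asparagine synthetase, was at 325 CPM in DU145 and 1.09 CPM in PC-3, and at 324 and 6.48 CPM in the OICR-9429 pair. RPMI1640 contains asparagine and DMEM does not, so for ASNS in particular the line and the medium cannot be told apart. GALC, the lysosomal galactosylceramidase, was at 153 and 0.682 CPM. Among signalling and surface genes, EREG, an EGFR ligand, was at 402 and 1.16 CPM, and CXADR, the coxsackie and adenovirus receptor, at 135 and 0.58 CPM. TGFBI, a secreted matrix protein, was at 460 and 4.74 CPM. The transcription cofactor LMO3, the membrane remodelling ATPase EHD2, the RNA-binding protein gene CELF2, the potassium channel gene KCNQ3 and MCTP2 completed the 15 with differences between 6.31 (MCTP2) and 6.86 (CELF2).

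The largest difference in favour of PC-3 was INHBB (ENSG00000163083), at 0.0362 CPM, or 1 fragment, in DU145 and 738 CPM in PC-3. INHBB encodes the beta B subunit of activins and inhibins, ligands of the TGF-beta family. It was at 0.0352 and 168 CPM in the OICR-9429 pair. INHBA, the beta A subunit, was at 0.435 and 350 CPM, and FST, the secreted activin antagonist follistatin, at 1.38 and 306 CPM. Both ligand subunits and their antagonist were thus high in PC-3 and low in DU145. FBN2, a microfibril protein, was at 0.254 and 392 CPM, SRGN, the proteoglycan serglycin, at 1.12 and 508 CPM, and SULF2, a heparan sulfatase, at 0.254 and 254 CPM. ANPEP, the aminopeptidase CD13, was at 1.59 and 545 CPM, and the elastase inhibitor PI3 at 0.725 and 252 CPM. FZD8, a WNT receptor, was at 1.23 and 451 CPM, a PC-3 over DU145 ratio of 366 (262 to 528). SLIT2, an axon guidance ligand, was at 1.05 and 241 CPM, and the matrix peroxidase PXDN at 4.02 and 523 CPM. The calcium buffer CALB1 was at 0.507 and 287 CPM and the chloride channel gene ANO1 at 0.0362 and 158 CPM.

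The promoters of UCHL1 and of IL1B, which was among the 15 genes furthest toward PC-3, are shown as a pair chosen for its contrast in CG content. No methylation was measured, and the letters are a description of the RefSeq reference. They are the 250 bases before the gene start on its own strand in RefSeq on GRCh38.p14, a later build than the hg19 of the files, at chr4:41256678-41256927 for UCHL1 (plus strand) and chr2:112836780-112837029 for IL1B (minus strand). Each CG is in capitals.
UCHL1: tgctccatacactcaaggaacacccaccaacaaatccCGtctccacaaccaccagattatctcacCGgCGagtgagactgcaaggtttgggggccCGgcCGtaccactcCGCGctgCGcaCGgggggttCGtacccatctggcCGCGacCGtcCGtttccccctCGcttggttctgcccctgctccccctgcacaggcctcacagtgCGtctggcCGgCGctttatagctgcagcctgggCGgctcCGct
IL1B: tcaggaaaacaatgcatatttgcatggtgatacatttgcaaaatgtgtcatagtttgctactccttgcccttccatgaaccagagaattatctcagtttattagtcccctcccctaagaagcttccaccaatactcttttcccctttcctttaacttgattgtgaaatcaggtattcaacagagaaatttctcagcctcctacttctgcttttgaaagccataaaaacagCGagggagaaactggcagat
The UCHL1 window held 20 CG and that of IL1B 1, against a median of 21 for the compared protein-coding genes that had a promoter in the table, so UCHL1 is ordinary among them. The median was also 21 for the genes at least 8-fold higher in DU145 and was 17 for those at least 8-fold higher in PC-3. Over all 27303 promoters of the table it was 11.

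Chemokines and interleukins differed gene by gene rather than as a class. Of 12 chemokine ligands compared, 3 were higher in DU145 and 6 in PC-3 at 2-fold, with a median of -0.43. The neutrophil attractants led. CXCL1 was at 56.5 CPM in DU145 and 673 CPM in PC-3, CXCL5 at 20.8 and 400 CPM, and CXCL6 at 7.0 and 177 CPM. In the OICR-9429 pair they were at 45.8 and 146, 11.0 and 170, and 1.58 and 42.8 CPM, all again lower in DU145. CXCL8, of the same family, was close to level at 237 and 202 CPM. CCL20 was higher in DU145, at 29.6 and 2.90 CPM, but not in the OICR-9429 pair, where its difference was -0.45. CXCL5 and CXCL6 are close paralogs, and how their reads were divided was not tested.

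CXCL6, CXCL1 and CXCL5 lie next to each other among the compared genes of chromosome 4, and their promoters are shown because they share 1 stretch, printed in capitals. It is GGGAATTTCCC, a form of the site that NF-kB dimers are known to bind. The windows are 250 bases before the start on the gene's strand (RefSeq, GRCh38.p14): chr4:73869143-73869392 for CXCL1 (plus), chr4:73998678-73998927 for CXCL5 (minus) and chr4:73836428-73836677 for CXCL6 (plus).
CXCL1: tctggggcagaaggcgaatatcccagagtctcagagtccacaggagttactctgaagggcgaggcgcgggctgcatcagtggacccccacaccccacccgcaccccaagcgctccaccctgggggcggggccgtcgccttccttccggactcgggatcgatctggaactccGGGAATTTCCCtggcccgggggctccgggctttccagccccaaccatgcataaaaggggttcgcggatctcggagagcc
CXCL5: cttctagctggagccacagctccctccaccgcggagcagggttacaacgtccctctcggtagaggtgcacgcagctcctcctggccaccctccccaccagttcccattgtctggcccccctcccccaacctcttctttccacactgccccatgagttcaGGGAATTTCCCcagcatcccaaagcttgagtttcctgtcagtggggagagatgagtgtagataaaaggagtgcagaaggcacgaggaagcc
CXCL6: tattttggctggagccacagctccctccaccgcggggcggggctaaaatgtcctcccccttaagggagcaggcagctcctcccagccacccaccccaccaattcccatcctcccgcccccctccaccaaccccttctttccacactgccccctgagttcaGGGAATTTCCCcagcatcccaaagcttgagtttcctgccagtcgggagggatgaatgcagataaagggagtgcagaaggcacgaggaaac
Read on the gene's strand, these 11 letters were in 13 of 27303 promoters (0.0476%). The letters were picked because these promoters share them, so that count is no test of the match. In CXCL5 and CXCL6 they lie within a longer run of identical letters, so those matches are not independent. The looser form GGGNNNNTCC, on either strand, was in 19.4% of all 27303 promoters. Among compared protein-coding genes with a promoter sequence, 2589 of 10585 held it. Of those at least 8-fold higher in DU145, 58 of 235 did, and of those higher in PC-3, 45 of 155, a difference that was not tested. A match is a description and not a bound site.

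IL1B, the interleukin 1 beta precursor, was at 0.254 CPM in DU145 and 541 CPM in PC-3, and the interleukin 7 receptor gene IL7R at 0.217 and 115 CPM. The colony-stimulating factor CSF3 was at 0.834 and 35.7 CPM and CSF2 at 1.99 and 16.7 CPM. In the other direction, OSMR, the oncostatin M receptor, was at 1028 CPM in DU145 and 83.6 CPM in PC-3, and CSF1 at 213 and 27.5 CPM. IL6 differed by -0.29 and its receptor subunits IL6R and IL6ST by 0.04 and 0.08, in lines that differ in STAT3. Over the 32 members compared, 10 were higher in DU145 and 8 in PC-3, with a median of 0.45.

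Antigen presentation genes leaned to DU145. Of 29 compared, 13 were higher in DU145 and 0 higher in PC-3 at 2-fold, with a median of 0.92. The invariant chain CD74 was at 43.5 and 0.0341 CPM. HLA-B was at 245 and 22.2 CPM, HLA-C at 324 and 47.8 CPM, and HLA-F at 22.6 and 1.60 CPM. The immunoproteasome subunit PSMB9 was at 30.6 and 3.68 CPM, the peptide transporter TAP1 at 115 and 38.0 CPM and the class I transactivator NLRC5 at 19.8 and 2.93 CPM. HLA-DRA, HLA-DRB1, HLA-DPB1 and HLA-DMB were listed for DU145 alone, at 3.33, 5.91, 1.78 and 4.49 CPM. HLA genes are polymorphic and near-identical, so their counts may depend on each line's alleles, which was not tested. In the OICR-9429 pair the same list gave 5 and 4 genes and a median of 0.22, with HLA-B at 168 and 61.0 CPM.

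Interferon-stimulated genes were split. Of 39 compared, 15 were higher in DU145 and 6 higher in PC-3, with a median of 0.46. OASL, a 2'-5' oligoadenylate synthetase-like protein, was at 70.9 and 7.61 CPM, the ISG15 ligase HERC5 at 72.8 and 8.70 CPM, and IFI6 at 83.3 and 10.3 CPM. IFI44L was at 0.906 and 13.8 CPM and SAMD9L at 1.38 and 11.8 CPM, both higher in PC-3. ISG15 itself was at 110 and 100 CPM, and OAS3 at 179 and 178 CPM. The order did not carry over to the OICR-9429 pair, in which 0 genes were higher in DU145 and 37 higher in PC-3, with a median of -2.52.

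The lines differed in the transcript levels of junction genes. Of 34 epithelial adhesion genes compared, 15 were higher in DU145 and 3 in PC-3, with a median of 0.81. Besides CTNNA1, these included the P-cadherin gene CDH3 (154 and 11.1 CPM) and the claudin gene CLDN1 (212 and 21.7 CPM). CGN, OCLN, F11R, CRB3 and TJP3, all of the tight junction, were all higher in DU145, with differences from 2.23 (F11R) to 3.46 (CRB3). The scaffold gene TJP1, at 0.26, and the catenin genes CTNNB1 and CTNND1, at -0.52 and -0.21, stayed within 2-fold. PKP1, a desmosomal plaque protein, went the other way, at 8.41 CPM in DU145 and 722 CPM in PC-3, and MAL2, of apical transport, was at 49.1 and 288 CPM. In the OICR-9429 pair the list had 11 and 5 such genes and a median of 0.10.

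Mesenchymal genes leaned to PC-3. Of 21 compared, 6 were higher in DU145 and 10 in PC-3, with a median of -0.62, and another 7 were listed for PC-3 alone against 1 for DU145 alone. The collagen VI genes, which encode a pericellular matrix, were among them. COL6A1 was at 238 CPM in DU145 and 2467 CPM in PC-3, COL6A2 at 241 and 2917 CPM, and COL6A3 at 461 CPM in PC-3 and unlisted in DU145. The cadherin genes CDH11, at 552 CPM, and CDH2, which encodes N-cadherin, at 160 CPM, were listed for PC-3 alone, as was TWIST1 at 17.7 CPM. FN1, fibronectin, was at 67.7 and 567 CPM and SNAI2, the transcription factor Slug, at 3.44 and 50.4 CPM. Not all members leaned this way: TGFBI, LOX (39.5 and 5.12 CPM), LOXL2 (428 and 154 CPM) and the receptor gene AXL (1095 and 455 CPM) were higher in DU145, and VIM, vimentin, was at 270 and 373 CPM.

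The integrin, laminin and basement membrane collagen genes differed in both directions. Over the 35 compared, 7 were higher in DU145 and 8 in PC-3, with a median of -0.04, and 3 each way were at least 8-fold apart. The integrin genes ITGB1 and ITGA3 were level: ITGB1 was at 2581 and 2610 CPM and ITGA3 at 1691 and 1696 CPM. The head-to-head pair COL4A3 and COL4A4 was higher in DU145, with COL4A3 at 17.7 and 0.648 CPM and COL4A4 at 38.3 and 0.819 CPM. The head-to-head pair COL4A5 and COL4A6 was higher in PC-3, with COL4A5 at 0.725 and 75.4 CPM. COL4A6 was at 23.7 CPM in PC-3 and had 0 fragments in the DU145 control, so against a floor of 3 fragments per library it was at least 218-fold higher in PC-3. LAMA1, a laminin chain, was at 105 and 1.88 CPM. Among 30 secreted proteases and inhibitors, 12 were higher in DU145 and 8 in PC-3. The lysosomal cathepsins CTSL (400 and 39.4 CPM) and CTSB (926 and 217 CPM) were on the DU145 side. The tissue plasminogen activator PLAT (4.35 and 202 CPM), PI3 and the membrane metalloprotease MMP16 (0.109 and 27.0 CPM) were on the PC-3 side. The urokinase gene PLAU and its receptor PLAUR were within 2-fold, at -0.42 and -0.43.

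**Figure D4:**
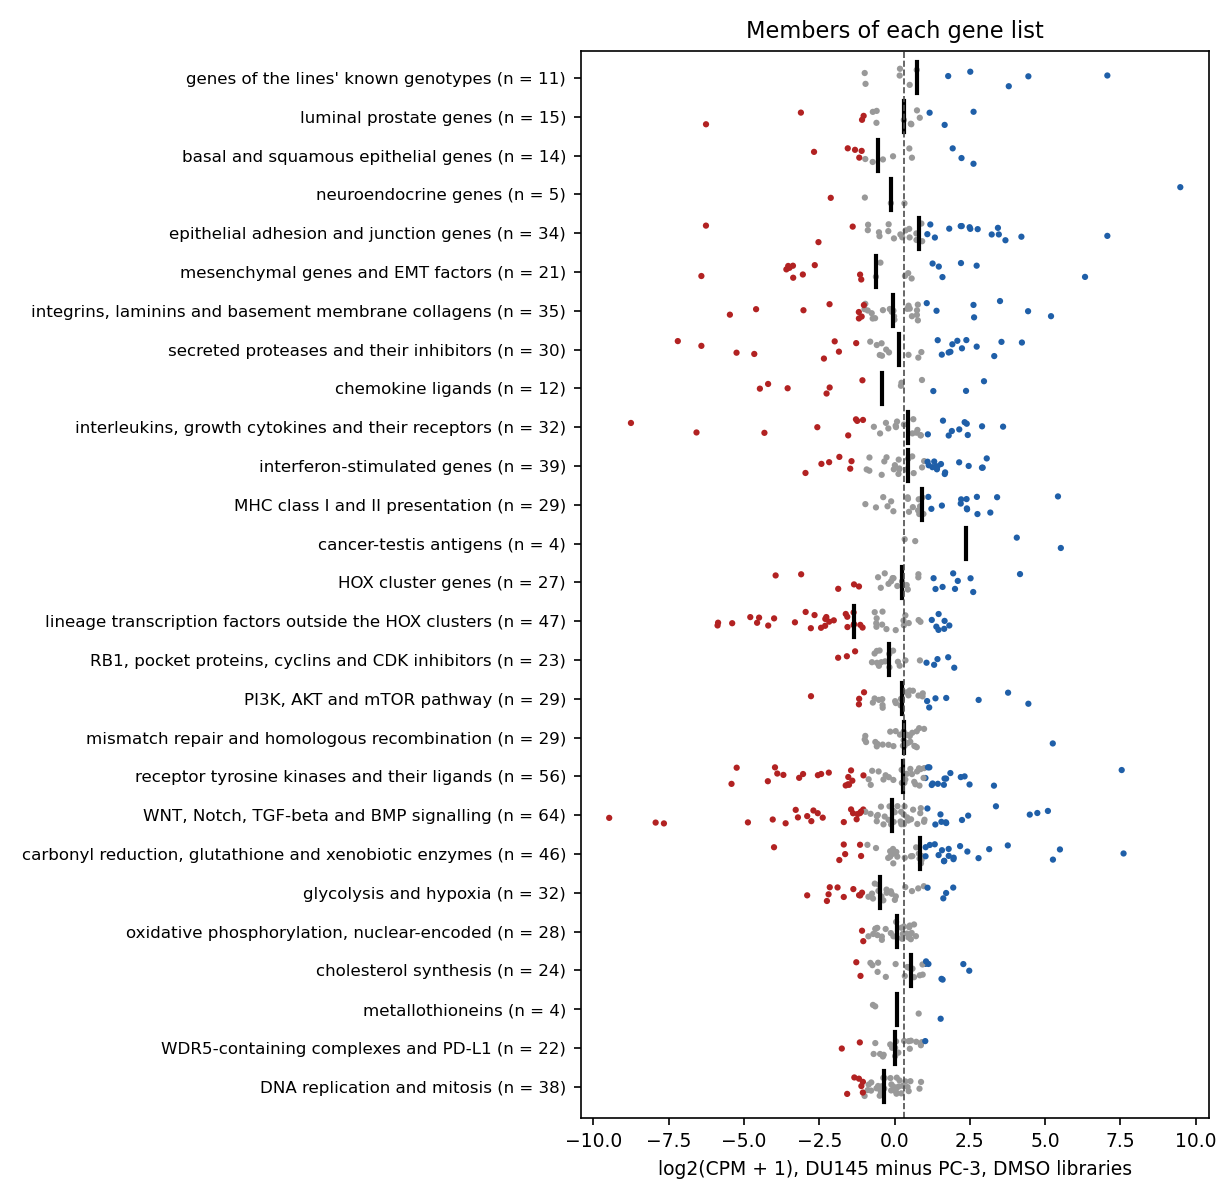
Difference of log2(CPM + 1), DU145 minus PC-3, for each compared member of the gene lists (1 point a gene, spread vertically for legibility), with the list median as a black bar and the median of all compared genes, 0.33, as a dashed line. Blue and red points are at least 2-fold higher in DU145 or PC-3. Antigen presentation lies to the right and lineage transcription factors to the left.

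Developmental transcription factors listed for both lines leaned to PC-3, with the lowest median of the lists in the plot of list members. Of 47 compared, 7 were higher in DU145 and 26 in PC-3 at 2-fold, and 0 and 9 at 8-fold. Over all compared genes the shares were 24.9% and 11.0% at 2-fold, and 2.38% and 1.42% at 8-fold. The list median was -1.35 and, in the OICR-9429 pair, -1.68. Another 6 members were listed for DU145 alone and 4 for PC-3 alone, and these have no fold. FOXA2, a forkhead factor of endoderm, was at 0.507 and 87.7 CPM, and ETV1, an ETS factor, at 0.0725 and 61.4 CPM. The homeobox gene DLX1 was at 0.254 and 51.7 CPM, the nuclear receptor gene NR2F1 at 3.44 and 122 CPM, and the T-box gene TBX3 at 8.99 and 236 CPM. On the DU145 side were RUNX3 (41.8 and 11.1 CPM) and MSX2 (4.28 and 0.682 CPM). FOXA1, the luminal pioneer factor, differed by -0.59.

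The HOX clusters, which pattern the body axis, were mixed. Of 27 genes compared, 9 were higher in DU145 and 5 in PC-3, and the median of 0.25 changes sign with either scaling. HOXB13, a prostate identity gene, was at 253 CPM in PC-3 and unlisted in DU145, with its neighbour PRAC1 at 11.4 CPM in PC-3 and also unlisted in DU145. In the same cluster HOXB7 (24.9 and 0.444 CPM), HOXB8 (6.16 and 0.171 CPM) and HOXB9 (73.8 and 17.6 CPM) were higher in DU145. In the A cluster, HOXA9 was at 2.17 and 48.1 CPM and HOXA13 at 4.31 and 44.6 CPM.

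Luminal prostate genes did not place 1 line above the other. Of 15 compared, 3 were higher in DU145 and 4 in PC-3. FKBP5, a target of steroid receptors, was at 128 and 39.8 CPM. SPDEF, an ETS factor of secretory epithelium, was at 0.507 and 115 CPM, and the protease gene TMPRSS2 at 0.435 and 11.4 CPM. The 6 epithelial markers check the cell type in both lines, and all were compared. KRT8 was at 562 and 314 CPM, KRT18 at 199 and 135 CPM, and EPCAM at 65.8 and 39.4 CPM, all within 2-fold. KRT7 (1204 and 375 CPM) and CDH1 were past 2-fold toward DU145, and KRT19 (251 and 512 CPM) toward PC-3. Of 14 basal genes, 3 were higher in DU145, led by COL17A1 (16.7 and 1.88 CPM), and 5 in PC-3, led by SERPINB5 (5.91 and 43.1 CPM). Among 62 cancer-testis antigens, 4 could be compared. TEX15 was at 60.7 and 0.341 CPM and DDX43 at 20.8 and 0.307 CPM, while PRAME was at 55.7 and 43.9 CPM.

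Markers of other cell types differed between the lists. The immune marker PTPRC was at 0.58 CPM in PC-3 and unlisted in DU145. Of 13 immune markers 1 could be compared, CD14, which was higher in DU145 at 3.30 and 0.239 CPM. The immune list summed to 5.69 CPM in DU145 and 2.05 CPM in PC-3. Of 9 endothelial markers 3 were compared, and all were higher in PC-3, with PECAM1 at 1.45 and 18.2 CPM. Another 3 were listed for DU145 alone and 1 for PC-3 alone. The summed level of that list was 7.65 CPM in DU145 and 40.7 CPM in PC-3. Of 12 fibroblast markers, 5 were compared, with list sums of 16.4 and 75.2 CPM, mostly from the collagen gene COL1A1 at 10.0 and 68.1 CPM. At 2-fold, 2 of the 5 were higher in PC-3 and 1, MYH11 (3.30 and 0.955 CPM), in DU145. The fibroblast genes LUM and THY1 were at 0.512 and 0.102 CPM in PC-3 and unlisted in DU145. Of 12 neural markers, 7 were compared, with a median of 1.25. At 2-fold, 4 of these were higher in DU145, such as GFAP (12.8 and 0.375 CPM), and 1, NEFL (9.50 and 207 CPM), in PC-3. The list summed to 205 and 316 CPM, with most of the PC-3 sum from NEFL. The 7 hepatocyte markers summed to 147.5 CPM in DU145 and 8.53 CPM in PC-3, nearly all from SERPINA1, the secreted antitrypsin gene, at 146 and 8.36 CPM, and another 3 were listed for DU145 alone. Their part in the results on adhesion and lineage genes was not tested.

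Among receptor tyrosine kinases and their ligands, several main receptors were within 2-fold. EGFR was at 608 and 386 CPM, MET at 364 and 526 CPM and FGFR1 at 152 and 77.4 CPM. The EGFR ligands EREG and AREG (210 and 20.4 CPM) were higher in DU145, TGFA was level at 86.7 and 89.1 CPM, and HBEGF was at 44.4 and 77.5 CPM. FGF5 was at 0.145 and 47.9 CPM, and IGFBP3, IGFBP4 and IGFBP5, which bind insulin-like growth factors, at 14.9 and 248, 91.2 and 1371, and 0.471 and 54.8 CPM. IGF1R was higher in DU145, at 153 and 41.7 CPM. The neuropilin genes NRP1 (108 and 899 CPM) and NRP2 (1.38 and 43.0 CPM) and VEGFC, a ligand gene of NRP2 (17.3 and 106 CPM), were higher in PC-3, and VEGFA (637 and 193 CPM) in DU145. Over 56 compared, 15 were higher in DU145 and 18 in PC-3.

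In the WNT, Notch and TGF-beta list, 12 of 64 were higher in DU145 and 21 in PC-3, with a median of -0.08. NOTCH3 was at 108 and 2.18 CPM with the Notch target HEYL at 13.6 and 0.409 CPM. NOTCH2 was at 90.3 and 293 CPM, the ligand gene JAG1 at 9.68 and 175 CPM, and the targets HES1 and HEY1 at 3.37 and 28.7 and at 2.25 and 23.3 CPM. Of these Notch genes, NOTCH3 and HEYL were higher in DU145, and NOTCH2, JAG1, HES1 and HEY1 in PC-3. Secreted WNT antagonists were divided too: DKK1 was at 125 and 1222 CPM, whereas SFRP1 was at 39.5 and 0.512 CPM and DKK3 at 29.9 and 0.375 CPM. The ligand genes WNT5A (11.5 and 64.1 CPM) and WNT7A (0.399 and 39.9 CPM) were higher in PC-3.

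Detoxifying enzymes leaned to DU145. Of 46 compared, 20 were higher in DU145 and 6 in PC-3, with a median of 0.85. ALDH2, the mitochondrial aldehyde dehydrogenase, was at 61.0 and 0.375 CPM, the vitamin D hydroxylase CYP24A1 at 45.2 and 0.205 CPM, and the quinone reductase NQO1 at 454 and 84.1 CPM. Glutathione genes GSR (241 and 61.2 CPM) and GCLC (181 and 59.9 CPM) were on the same side. GSTP1, a gene known to be silenced in most prostate cancers, was at 50.6 and 165 CPM, and ALDH1A3 at 24.0 and 400 CPM. Metallothionein gene MT1E was at 201 CPM in DU145 and unlisted in PC-3, while MT2A was at 383 and 630 CPM, and these are a family of near-identical genes. Of 24 cholesterol genes, 7 were higher in DU145 and 2 in PC-3, shares not far from the 24.9% and 11.0% of all compared genes. The squalene synthase FDFT1 (180 and 31.5 CPM) led the DU145 side.

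Glycolysis and hypoxia genes leaned to PC-3 in the control pair, with 4 of 32 higher in DU145, 10 higher in PC-3 and a median of -0.48. LDHA was at 572 and 2126 CPM, PGK1 at 294 and 949 CPM and HK2 at 28.0 and 132 CPM. EGLN3 (8.26 and 1.40 CPM) and SLC2A1, the glucose transporter (276 and 129 CPM), were higher in DU145. The OICR-9429 pair gave the opposite count, 13 and 4, with a median of 0.69 and LDHA at 1305 and 652 CPM. Nuclear-encoded genes of oxidative phosphorylation were close in level, with 0 and 2 of 28 past 2-fold.

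Replication and mitosis genes were mostly within 2-fold, with 0 of 38 higher in DU145, 6 higher in PC-3 and a median of -0.34. MKI67 was at 486 and 472 CPM and MCM2 at 162 and 166 CPM, while POLA1 (24.1 and 73.6 CPM) and PLK1 (58.1 and 148 CPM) were higher in PC-3. The OICR-9429 pair gave the opposite count, 16 higher in DU145 and 0 in PC-3, with a median of 0.70, MKI67 at 100.1 and 28.7 CPM and POLA1 at 18.9 and 16.2 CPM. Among 23 cyclins, inhibitors and related genes, 5 were higher in DU145 and 3 in PC-3. CDK6 was at 28.5 and 107 CPM and CCND1 at 335 and 1007 CPM, and CDKN1B, the p27 inhibitor, at 82.5 and 20.1 CPM. In the OICR-9429 pair CCND1 was at 740 and 507 CPM.

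The PI3K list held 7 genes higher in DU145 and 4 in PC-3 of 29, shares near the 24.9% and 11.0% of all compared genes, with AKT1 at 121 and 117 CPM and PIK3CA at 57.9 and 49.8 CPM. DDIT4, an inhibitor of mTORC1, was at 112 and 7.30 CPM in the control pair and 85.0 and 86.6 CPM in the OICR-9429 pair. SGK1 was at 6.56 and 50.8 CPM. In the repair list, RAD50 was the 1 gene of 29 past 2-fold, whereas the OICR-9429 pair had 13 higher in DU145 and 1 in PC-3. Its partners in the complex, MRE11 (60.9 and 46.9 CPM) and NBN (90.1 and 134 CPM), were within it. Among 22 genes of WDR5-containing complexes and PD-L1, KAT8 (45.5 and 21.9 CPM) was higher in DU145, and HCFC1 (162 and 361 CPM) and PDCD1LG2 (0.471 and 3.96 CPM) in PC-3. The methyltransferases KMT2A and KMT2D were level, at -0.05 and 0.02.

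Genes listed for 1 line were taken apart from the comparison. For DU145 alone there were 4317, of which 587 reached 1 CPM and 361 of those were protein-coding. For PC-3 alone there were 2319, of which 290 reached 1 CPM and 192 were protein-coding. At 100 CPM or more the counts were 3 for DU145 (CAVIN1, STAT3 and MT1E) and 8 for PC-3. In DU145 the decoy receptor gene TNFRSF10D was next, at 99.4 CPM. In PC-3 the list also held EPB41L3, a membrane skeleton protein (346 CPM), and ADGRF1, an adhesion receptor (206 CPM), besides CDH11, COL6A3, HOXB13, CDH2 and MUC5AC. TSPYL5, at 97.9 CPM, was just under that level.

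The second pair of libraries gave a repeat of the line difference under another treatment. Of the 378 genes at least 8-fold higher in the DU145 control, 370 were at least 2-fold higher in DU145 with OICR-9429 (97.9%), 222 were again at least 8-fold higher (58.7%) and 1 was 2-fold lower. Of the 226 on the PC-3 side, 222 were at least 2-fold higher in PC-3 (98.2%), 152 were again at least 8-fold higher (67.3%) and 0 were 2-fold lower. Among all 15219 genes compared in that pair, 19.9% were at least 2-fold higher in DU145 and 14.5% in PC-3, and 2.1% and 1.84% at least 8-fold. Of the 3947 genes past 2-fold in DU145, 52.6% were past 2-fold again, and of the 1750 in PC-3, 63.7%. The dose also differed between the lines, so this pair is not a replicate of the control pair.

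**Figure D5:**
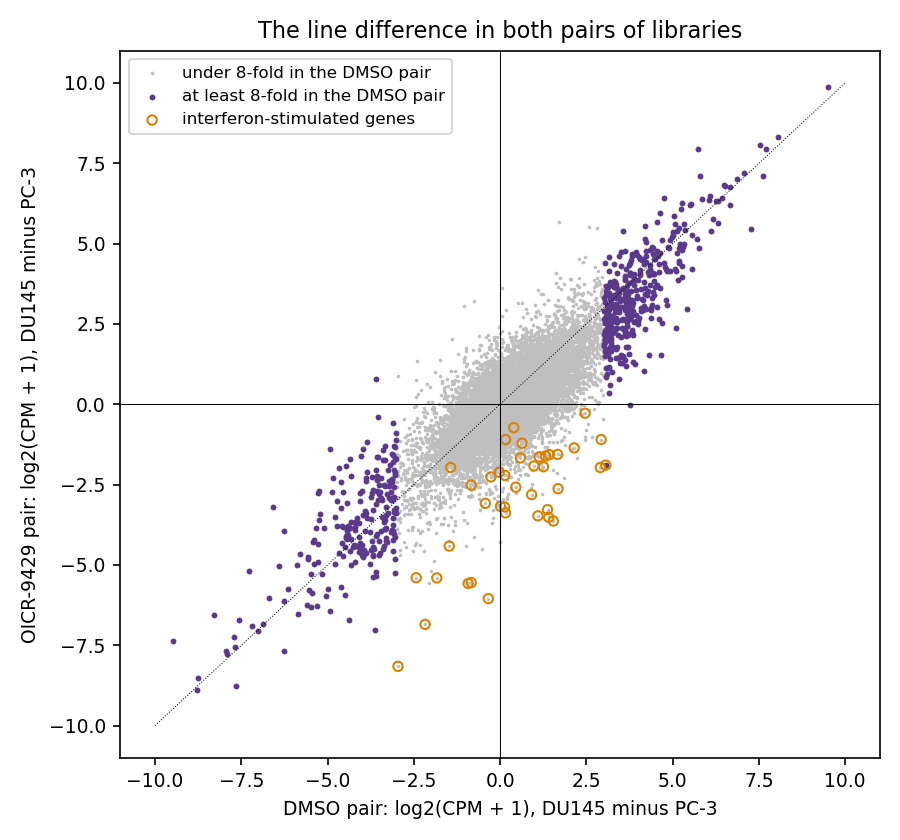
Difference of log2(CPM + 1), DU145 minus PC-3, in the control pair (horizontal axis) and the OICR-9429 pair (vertical axis), with 1 point a compared gene. Purple genes, at least 8-fold apart in the control pair, lie along the dotted line of equality, while the interferon-stimulated genes (open orange circles) lie below it.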

How the data were processed

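RNA from 4 cultures was sequenced, and the 2 DMSO libraries were joined on the gene identifier. Per the file headers, each deposited value is a gene's CPM. HISAT2 2.1.0, HTSeq 0.6.1, bcl2fastq 2.19.1 and build hg19 appear in the submitters' processing notes, which assign them no role. Not given in the sources used here are the annotation and the handling of strand and of reads shared by genes. Genes with near-identical copies or overlaps are therefore uncertain.

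All CPM values were whole multiples of 1 step per library (100% within 0.01 step), so reads were recovered and halved to fragments. Values of exactly 1 step (111 in DU145 and 190 in PC-3) were taken as 0. At this depth 3 fragments are 0.109 CPM in DU145 and 0.102 CPM in PC-3. PCR copies cannot be told from molecules.

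Genes listed in both files, with at least 1 CPM in the higher library, were compared as log2(CPM + 1). The rules of size are 2-fold and 8-fold, with no test between the 2 control libraries. For ratios, intervals are exact conditional binomial (Clopper-Pearson) at 95% on fragments. Of 27658 identifiers, 27302 matched a current symbol, 191 GENCODE 29 alone and 165 none. Gene types and gene order came from GENCODE 29 on another build. Named genes are the genotype genes, the 15 largest differences each way with at least 5 CPM, up to 4 or the defining members per list, the 8 highest genes of each line alone, members of neighbouring runs, WDR5 and CD274. Others, such as list members given for contrast and genes beside a run, were named after their values were seen. Members and lists were chosen with earlier results of these data known. Genes tied to the sex of a donor were left out, and some genes that the rule names are not reported here.

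Alternatives were a pseudocount of 0.1 CPM, a minimum of 5 CPM or none, median-of-ratios and TMM scaling, protein-coding genes alone, the OICR-9429 pair, and a fit with edgeR 4.0.16 (R 4.3.3) on the fragments of all 4 libraries with line and treatment as terms. Tested on simulated data for the line term, that fit recovered 99 of 100 genes changed 8-fold with 3 false calls among 14973 genes. The simulated data had the same dispersion for every gene and no treatment effect. Their false calls therefore do not measure the error among the calls on the real libraries.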

Additional observations from a re-analysis of the deposited data

Results flagged for a closer look

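In 3 named interferon-stimulated genes the line difference pointed one way in the control pair and the other way in the OICR-9429 pair, at 2-fold or more in both. OASL went from 3.06 to -1.89, HERC5 from 2.93 to -1.10 and IFI6 from 2.90 to -1.97, as differences of log2(CPM + 1), DU145 minus PC-3. Each value rests on 1 library a line, and the difference between the pairs was not tested.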

How the results depend on the processing

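With a pseudocount of 0.1 CPM the genes at least 8-fold higher were 992 in DU145 and 390 in PC-3, against 378 and 226 with 1 CPM. The genes at least 2-fold higher in PC-3 were 2971 with median-of-ratios scaling and 2826 with TMM scaling, against 1750. The share of 8-fold genes that were higher in DU145 was 62.6% as deposited, 48.3% and 49.5% with these scalings and 71.8% with the smaller pseudocount. Protein-coding genes alone kept each of these counts within 1.5 times, as a minimum of 5 CPM did the 2-fold counts (3007 and 1547). With 1 CPM added, removing the minimum cannot change any of the counts, nor a minimum of 5 CPM the 8-fold ones. Of 130 named genes past 2-fold, 128 stayed past it the same way under either scaling and 101 in the OICR-9429 pair, where 118 kept their sign. There the signs turned for BBC3 (-0.49), CCL20 (-0.45), CCND1 (0.54), DDIT4 (-0.026), HERC5 (-1.10), IFI6 (-1.97), KRT19 (0.24), MAP2 (-0.059), NDUFB3 (0.026), OASL (-1.89), PCNA (0.49) and POLA1 (0.21). Several list medians turned as well. Among them were the neural markers (-0.059, against 1.25) and the interferon-stimulated genes (-2.52, against 0.46). Glycolysis and hypoxia (0.69, against -0.48) and replication and mitosis (0.70, against -0.34) turned the other way. The causes were not tested. With edgeR's quasi-likelihood test on the 4 libraries and Benjamini-Hochberg adjustment at 0.05, the line term called 2841 genes higher in DU145 and 1556 higher in PC-3 of 14973, and 6082 had an unadjusted p under 0.05. That test takes the OICR-9429 libraries as repeats of a line, which their doses and responses differ from. It used library totals with no scaling factor, and its split between the lines was not checked under either scaling. No paired analysis was possible because each group has 1 library and the labels carry no replicate numbers. Depth limits genes near 0.1 CPM, where 3 fragments lie.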

Other observations

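Genes in this section were chosen after their values were seen. EGR1, an immediate early transcription factor, was at 74.5 CPM in the DU145 control and 0.102 CPM in the PC-3 control, and at 47.1 and 0.144 CPM with OICR-9429. It lies 3 places from CTNNA1 in the order of protein-coding genes, with HSPA9 (867 and 484 CPM) and ETF1 (294 and 170 CPM) between them. SLC25A21, a mitochondrial carrier near NKX2-1, was at 93.0 and 0.989 CPM.

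A few genes related to ASNS in function were read beside it, with no list behind them. PSAT1, of serine synthesis, was at 830 and 59.0 CPM, PHGDH at 312 and 110 CPM, the cystine transporter SLC7A11 at 166 and 33.3 CPM, and ATF4 at 475 and 219 CPM. The argininosuccinate synthase ASS1 was at 77.1 and 4.16 CPM. Line and medium cannot be told apart for these genes.

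Of 17 mucin, trefoil factor and anterior gradient genes, 7 were listed for PC-3 alone and 2 for DU145 alone at 1 CPM or more. AGR2 was at 25.3 CPM in PC-3. Over all genes those counts were 290 for PC-3 and 587 for DU145. Of the 7 family members compared, 3 were higher in DU145 and 4 in PC-3 at 2-fold. The surface mucin gene MUC1 was at 42.6 CPM in DU145 and 4.13 CPM in PC-3, and MUC16 was listed for DU145 alone at 7.18 CPM. Of 40 clustered protocadherin genes compared, 16 were higher in DU145 (40%) and 1 in PC-3 at 2-fold, and 11 and 4 in the OICR-9429 pair. That share is close to the 39.1% of other protein-coding genes with a mean of 1 to 10 CPM. Of 434 genes named ZNF, 87 and 52 were, shares not far from the 24.9% and 11.0% of all compared genes, with a median of 0.00. Within the mitochondrial transcripts, MT-RNR2 was at 13179 and 4099 CPM, and MT-CO1 at 13806 and 24831 CPM.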
